A study of Cricetulus griseus with 8 samples.

Results

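In control Chinese hamster ovary (CHO) cells, 910 of the 34490 listed transcripts were abundant as RNA but carried few ribosome footprints. They were chosen on control values. CPM (the count scaled so that each library sums to 1000000) had to reach 10 in both control RNA libraries, and footprint CPM had to stay at or below 0.25 of RNA CPM in both control pairs. The listed length had to be at least 61 and under 2500, the 37 lowest-numbered identifiers were left out, and mean RNA in RNG140-GFP cells had to lie within 4-fold of the control mean. The length and RNA limits alone were met by 11180 transcripts, so the members were a small part of the abundant transcripts, and 10270 abundant transcripts lay outside the rule. The 4-fold limit removed a single transcript, of listed length 351, whose RNA went from 12.4 and 10.8 CPM in controls to 2.57 and 2.49 CPM in RNG140-GFP cells. The listed length is a number that the tables give without a unit. Several members can have the same listed length; the one named is then the one that its rank, given with it, picks out.

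The data were ribosome profiling and stranded mRNA sequencing of CHO cells, an established hamster cell line. The 4 groups had 2 libraries each: footprints and RNA of control cells, labelled wild type, and footprints and RNA of cells that expressed RNG140 fused to GFP. Both populations are the same line, and the labels do not say how RNG140-GFP was introduced, whether the cells were 1 clone, or whether libraries came from separate cultures, so the spread between libraries may be technical. RNG140 (caprin2) binds RNA and is a component of RNA granules in the cytoplasm, and the study measured translation in cells that overexpress it.

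An mRNA is translated by ribosomes that load at its start region and move along its coding region. Nuclease digestion leaves the stretch of mRNA inside each ribosome intact, so footprints relative to RNA, called translation efficiency, reflect how densely an mRNA is loaded. Cells hold many mRNAs at low loading: known examples are mRNAs with upstream open reading frames, mRNAs of the translation machinery that begin with a pyrimidine tract, and mRNAs stored in RNA granules. The tables give transcript identifiers without gene names, and a lookup in the RefSeq gene table matched 0 of them. Members are therefore called by their listed length, and which of them belong to such classes was not analysed here.

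Footprint libraries held between 4908885 and 16928311 counts and RNA libraries between 22849263 and 35875108. Footprints and RNA were prepared by different protocols. For any transcript, low loading and unequal recovery by the assays therefore cannot be told apart, whether the ratio is low in 1 population or in both. Footprint counts set the precision: the median member had 53 and 27 footprint counts in the control libraries and 97.5 and 132 in the RNG140-GFP libraries.

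The values that chose the members are given first, as a description. The control ratio had a median of 0.164 in pair 1 and 0.159 in pair 2, against 0.786 and 0.787 among the abundant transcripts outside the rule. The members' 5th and 95th percentiles were 0.0444 and 0.239 in pair 1 and 0.0531 and 0.235 in pair 2. Just inside the limit, the members of listed lengths 344, 154 and 724 had 0.2494, 0.2491 and 0.249 as the larger of their control ratios. Just outside it, transcripts of listed lengths 580, 743 and 605 had 0.2502, 0.2502 and 0.2503. The limit thus divides a continuous range of values. In sum the members took 7.23% and 7.09% of control RNA counts (exact binomial 95% intervals 7.22% to 7.24% and 7.08% to 7.1%) and 1.17% and 1.15% of control footprint counts (1.16% to 1.18% and 1.14% to 1.15%). The intervals cover counting error only and take each count as a separate read. Some members appear to share reads, as described below, so the intervals may be too narrow.

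The footprints of RNG140-GFP cells were not used by the rule, and there the members again had few footprints. Their ratio had a median of 0.184 in pair 1 and 0.187 in pair 2, against 0.81 and 0.817 among the abundant transcripts outside the rule. The ratio stayed at or below 0.25 in both RNG140-GFP pairs for 656 members (72.1%), whereas 7.52% of all abundant transcripts, and 185 of the 10270 outside the rule, were that low. It lay above 0.25 in both pairs for 151 members and on different sides of 0.25 for 103. It exceeded 0.5 in both pairs for 2 members and 1 in either pair for 0. In RNG140-GFP cells the members took 7.5% and 7.47% of RNA counts (intervals 7.49% to 7.51% and 7.46% to 7.48%) and 1.37% of footprint counts in both libraries (1.37% to 1.38% and 1.36% to 1.37%).

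**Figure D1:**
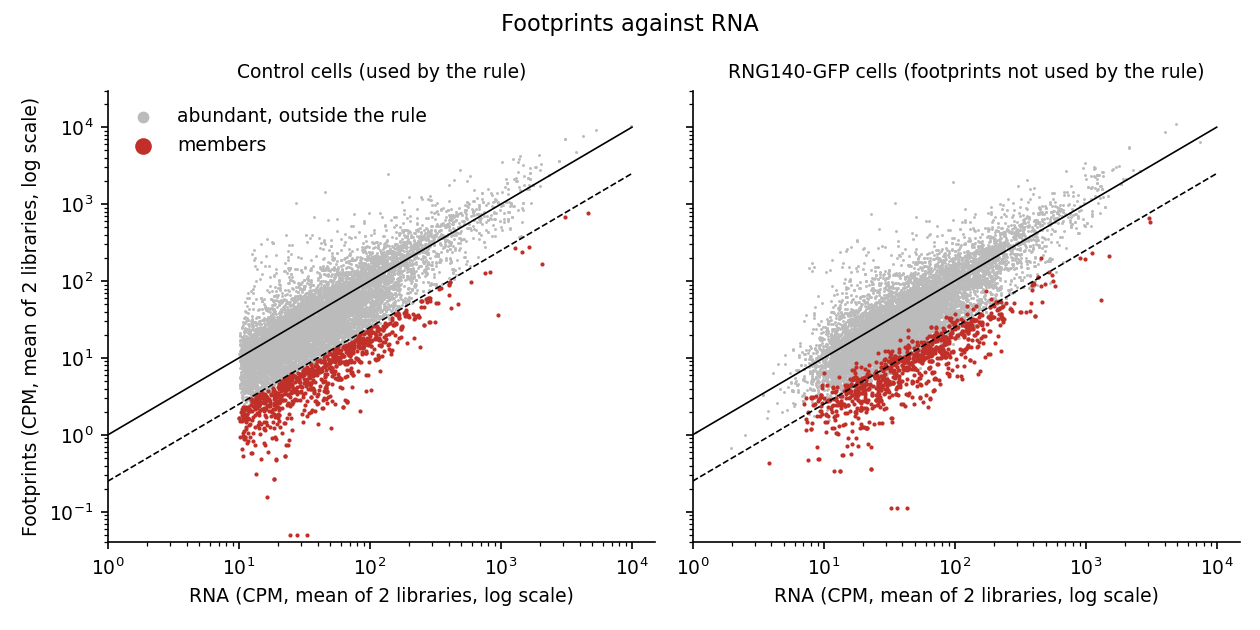
Footprint CPM against RNA CPM, both as means of 2 libraries on log axes, in control cells (left) and RNG140-GFP cells (right), with the 910 members in red and the other abundant transcripts in grey. The solid line marks equal CPM and the dashed line a ratio of 0.25; footprint values of 0 are drawn at 0.05, and transcripts under 1 CPM of RNA are not drawn. The members lie under the dashed line on the left by the rule, and most of them, with medians of 0.184 and 0.187, also on the right.

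This was tested in the 4 RNG140-GFP libraries alone, so that no control library entered the fit. All 910 members passed the filter on low values, which read RNA libraries only. Footprints relative to RNA were lower by more than 2-fold for 855 members (94%) in edgeR's test against a minimum change (Benjamini-Hochberg adjusted p under 0.05 over 16441 transcripts). The background was 15.1% of all tested transcripts and 8.42% of the abundant ones outside the rule. The members' median was -2.05 on the log2 scale, a ratio of 0.242 after TMM (trimmed mean of M-values) scaling, with a median standard error of 0.12; the median of all tested transcripts was -0.04. Without a minimum change, 909 members were lower, against a background of 40.2%. DESeq2 called 777 members at the same minimum change.

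Members had a similar order in both cell populations. Across the 910 members, control and RNG140-GFP mean ratios had a Spearman correlation of 0.71, and the 2 RNG140-GFP pairs one of 0.91; all ratios share the read length, the counted regions and the assay protocols. The 37 members with a mean control ratio up to 0.05 had median RNG140-GFP ratios of 0.0545 and 0.0494, and all 37 were at or below 0.25 in both pairs. The 137 members between 0.05 and 0.1 had medians of 0.0945 and 0.0953. The 221 members between 0.2 and 0.25 had medians of 0.243 and 0.245, and 98 of them stayed at or below 0.25 in both pairs. Replicate pairs of a member differed by a median of 0.215 in controls and 0.16 in RNG140-GFP cells on the log2 scale, against 0.133 and 0.112 outside the rule, where more footprints were counted.

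**Figure D2:**
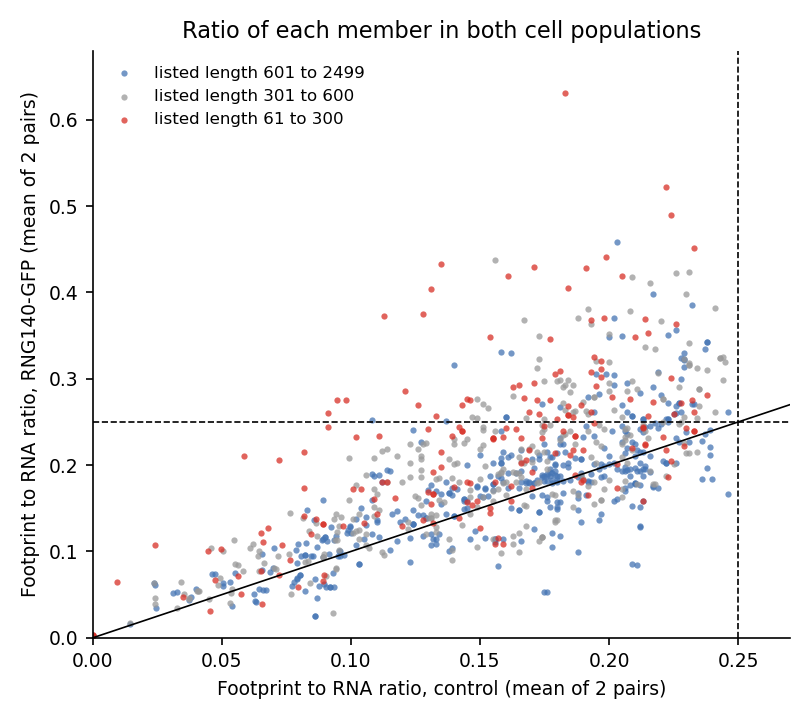
Each point is 1 of the 910 members, with the mean footprint to RNA ratio of the 2 control pairs on the horizontal axis and of the 2 RNG140-GFP pairs on the vertical axis, coloured by listed length. The solid line marks equal ratios and the dashed lines 0.25; short members (red) are frequent above the horizontal dashed line, and the single highest point, at a mean of 0.631, is the member of listed length 189.

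The members with the most RNA reads stayed below the highest abundant transcript outside the rule, which had a control mean of 9787 CPM. The member of listed length 293 held 4621 and 4544 CPM of control RNA but 768 and 786 CPM of control footprints. In RNG140-GFP cells its RNA was lower, at 3058 and 3096 CPM, and its footprints were 597 and 582 CPM. Its ratio was thus 0.166 and 0.173 in controls, against 0.195 and 0.188 in RNG140-GFP cells, so both assays moved down together and the ratio stayed low. Its RNA fell by 0.66 ± 0.06 (SE) and its footprints fell by 0.54 ± 0.06 on the log2 scale (edgeR).

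Other members with the most RNA reads had the same kind of values. That of listed length 284 held 3086 and 3032 CPM of RNA in controls, against 3105 and 2997 CPM in RNG140-GFP cells, with ratios of 0.229, 0.216, 0.213 and 0.221 in the 4 pairs. The members of listed lengths 170, 304 and 289 had ratios between 0.161 and 0.222 in all 4 pairs, and their RNA fell by between 0.58 and 0.65 on the log2 scale. In these 5 members footprints relative to RNA in RNG140-GFP cells were between -2.00 and -1.81 on the log2 scale, with a standard error of 0.06 each (edgeR adjusted p 4.92e-12 or lower against the minimum change).

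The member of listed length 118 stood apart from those 5. Per 100 units of listed length it had more control RNA, 1740 CPM, than any other member, against 1564 CPM for the member of listed length 293 and a median of 7.95 CPM over the members. Its ratio was 0.0761 and 0.0873 in controls, against 0.155 and 0.127 in RNG140-GFP cells, where both values lay above both control values. RNA fell by 0.53 ± 0.07 while footprints rose by 0.21 ± 0.08 (SE, log2 scale, edgeR). Even so, its footprints relative to RNA in RNG140-GFP cells were -2.45 ± 0.08, below those of the other 5 members with the most RNA reads.

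At the lower end were members with almost no footprints. A set of 3 identifiers of listed length 68 (ratios 0 in both control pairs) held 0 footprint counts in both control libraries and 2 and 1 counts in the RNG140-GFP libraries. Their RNA was nevertheless steady, with means of 32.9 ± 1.43, 28 ± 0.295 and 24.7 ± 0.0964 CPM in controls (SD, n = 2). A count of 0, taken over both control libraries, allows up to 3 counts, and so ratios up to 0.00654, 0.00769 and 0.00872. The 3 counts of RNG140-GFP cells give ratios of 0.00238, 0.00286 and 0.00317, with exact Poisson 95% intervals from 0.00049 to 0.00694, 0.00059 to 0.00836 and 0.000655 to 0.00928. All 3 of these members had the same 4 footprint counts and the same length, so their footprints may be 1 measurement counted on each.

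The next lowest also had few footprints. For the member of listed length 844, control libraries held 3 and 1 footprint counts and RNG140-GFP libraries 3 and 8, against RNA counts of 678, 566, 734 and 452, which left its ratio between 0.00926 and 0.0239 in the 4 pairs. Ratios of the member of listed length 621 were 0.0769 and 0.0958 in controls but 0.0254 and 0.0255 in RNG140-GFP cells, from 8, 5, 4 and 6 footprint counts. Those of the member of listed length 65 were 0.0291, 0.0615, 0.0255 and 0.0358. In the RNG140-GFP fit these members were at -5.55 ± 0.5, -4.89 ± 0.46 and -4.6 ± 0.32 (SE, log2 scale). Over all members, 90 had a ratio under 0.1 in each of the 4 pairs and 11 had one under 0.05 in each.

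A low ratio with many reads was seen in the member of listed length 1461, which was singled out after its values were seen. Its control RNA was 964 and 948 CPM and its control footprints 37.9 and 33.8 CPM, from 343 and 166 counts. In RNG140-GFP cells RNA was 1325 and 1317 CPM and footprints 55 and 59.8 CPM, so that RNA rose by 0.38 ± 0.06 and footprints by 0.52 ± 0.09 (SE, log2 scale, edgeR). The ratio was 0.0393, 0.0357, 0.0415 and 0.0454 in the 4 pairs, and the change in translation efficiency, 0.14 ± 0.11, was not called. Both preceding identifiers by number, of listed lengths 1209 and 1165, were also members, at ratios between 0.0415 and 0.0684. The following identifiers, of listed lengths 614 and 521, were not: their ratios lay between 1.88 and 2.3 in the 4 pairs.

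At the upper end, 55 members were not called as having footprints more than 2-fold below RNA within RNG140-GFP cells. Their mean RNG140-GFP ratios ran from 0.297 to 0.631 with a median of 0.37. Their median listed length was 320, against 555.5 over all members. A length of 300 or less was found in 22 of them (40%) and in 181 of all 910 members (19.9%). The highest ratio belonged to the member of listed length 189, at 0.197 and 0.168 in controls, against 0.653 and 0.608 in RNG140-GFP cells. Its RNA fell by 0.7 ± 0.11 and its footprints rose by 0.99 ± 0.25 against controls (SE, log2 scale, edgeR). It was the 1 member whose footprints were not called below RNA within RNG140-GFP cells even without a minimum change.

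Short members were frequent among the highest RNG140-GFP ratios. That of listed length 70 went from ratios of 0.215 and 0.228 to 0.508 and 0.537, and that of listed length 132 from 0.248 and 0.2 to 0.497 and 0.482. Those of listed lengths 190 and 129 reached 0.441 and 0.464, and 0.431 and 0.451. A single long member, of listed length 1316, was among the 6 highest, at 0.228 and 0.178 in controls, against 0.449 and 0.467 in RNG140-GFP cells. In each of these 5 members both RNG140-GFP values lay above both control values. This follows from how they were picked, since the rule holds control ratios at or below 0.25.

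**Figure D3:**
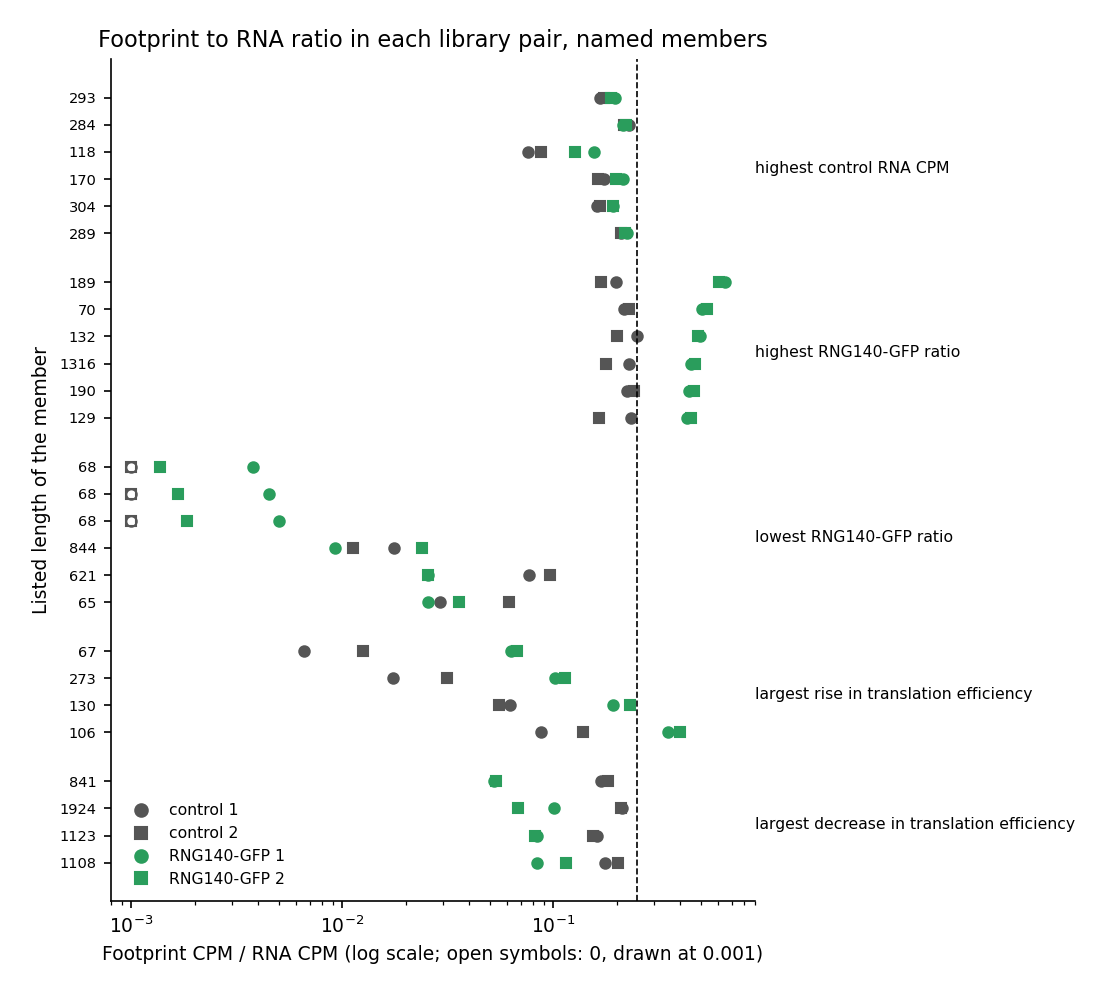
Footprint CPM divided by RNA CPM on a log axis for the named members, each row 1 member labelled by its listed length, with control pairs in grey and RNG140-GFP pairs in green (circle, pair 1; square, pair 2). The dashed line marks 0.25 and open symbols at 0.001 stand for 0; green points lie close to grey ones for most members of highest RNA, right of them for rises and left of them for decreases.

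The members were spread over the length window. Among abundant transcripts, members made up 5.12% of those with listed lengths up to 150, 5.84% of those over 150 and up to 300, 8.13% up to 600, 9.43% up to 1000 and 11.2% over 1000. Control medians hardly differed between these classes, at 0.146 and 0.148 in the shortest and 0.165 and 0.169 in the longest. The rule bounds control ratios from above. RNG140-GFP medians, which it does not bound, were 0.231 and 0.232 in the shortest class, 0.223 and 0.213 in the next, 0.187 and 0.192 in the middle, 0.177 and 0.18 in the fourth and 0.171 and 0.178 in the longest. The share of members at or below 0.25 in both RNG140-GFP pairs was 54% (27 of 50) in the shortest class and 86% (160 of 186) in the longest. Across members, listed length had a Spearman correlation of -0.21 with the RNG140-GFP mean ratio and 0.07 with the control mean ratio.

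RNA level separated the members less, by a measure that is divided by listed length and so is not separate from it. Ranked by control RNA CPM per 100 units of listed length, the lowest 4 of 5 equal classes of abundant transcripts held between 8.32% and 9.48% members and the highest class 5.19%. Median RNG140-GFP ratios were 0.171 and 0.18 in the lowest class and 0.209 and 0.205 in the highest. The Spearman correlation of mean control RNA CPM, not divided by listed length, with the RNG140-GFP mean ratio was -0.07 over the 910 members.

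Many members may not be separate measurements. All 8 counts were the same as those of another member for 55 members. By neighbouring identifier numbers and similar RNA counts, the 910 members formed 671 groups that appear to share reads: 493 of 1 member and 178 of 2 to 5, which held 417 members. A further 155 abundant transcripts outside the rule shared a group with a member, in 99 groups. Their larger control ratio had a median of 0.677, and 28 of them were at or below 0.3. Similar RNA counts at neighbouring numbers can also come from different genes, so these groups are approximate.

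The change between cell populations was then described for the 892 members that passed the expression filter in both assays. The 18 others had at most 12 and 6 footprint counts in the control libraries. Because control values chose the members, these calls describe them and support nothing beyond that. RNA was called higher in RNG140-GFP cells for 319 members and lower for 268 (edgeR quasi-likelihood test, all 8 libraries), against backgrounds of 31.0% and 30.3% of the 15577 tested transcripts. With library totals in place of TMM the split was 397 and 216. The median RNA change was 0.04 on the log2 scale, with 5th and 95th percentiles of -0.7 and 0.72. In such bulk samples, fewer cells with an mRNA and less of it per cell cannot be told apart.

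Footprints were called higher for 291 members and lower for 97, with a median of 0.23, against backgrounds of 25.9% and 26.4% and a median of 0.02 over all tested transcripts. Without the first control footprint library 210 were higher and 56 lower. With library totals the split was 380 and 63, and that scaling moved the median of all transcripts to 0.17 and that of the members to 0.37. Translation efficiency was called higher for 136 members (15.2%) and lower for 40 (4.48%), against backgrounds of 11.2% and 12.0%, with a median of 0.17 against 0.01. Without the first control footprint library 96 were higher and 18 lower, and without the second 90 and 27. Without the first control RNA library the numbers were 88 and 37.

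Both RNG140-GFP ratios lay above both control ratios for 469 members and below them for 129, while 312 overlapped. The backgrounds were 37.5% and 29.0% of the abundant transcripts. Of the 136 members with higher translation efficiency, footprints were called higher for 103, lower for 1 and neither for 32, while RNA was called higher for 38, lower for 47 and neither for 51. Over all tested transcripts 31.0% were called higher and 30.3% lower in RNA. Their median ratios were 0.164 and 0.15 in controls, against 0.268 and 0.276 in RNG140-GFP cells, and 45 stayed at or below 0.25 in both pairs. Of the 40 with lower translation efficiency, footprints were called higher for 2, lower for 23 and neither for 15, while RNA was called higher for 21, lower for 8 and neither for 11. Over all tested transcripts 25.9% were called higher and 26.4% lower in footprints. Their median ratios were 0.179 and 0.18 in controls, against 0.117 and 0.114 in RNG140-GFP cells. Median listed lengths were 373.5 for the former and 904 for the latter. A change in translation efficiency is the footprint change minus the RNA change. The splits by footprints and RNA therefore follow in part from how both sets were called.

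The size of the change followed listed length in the members and in the abundant transcripts outside the rule. In the shortest class the median change in translation efficiency was 0.62, with 18 of 46 tested members called higher and 0 lower. It was 0.43 in the next class (34 higher and 2 lower of 128) and 0.27 in the middle (56 and 7 of 310). In the fourth it was 0.11 (16 and 14 of 223) and in the longest 0.01 (12 and 17 of 185). The abundant transcripts outside the rule ran in the same order, at 0.36, 0.11, -0.03, -0.11 and -0.18. In the shortest class 451 of 927 of them were called higher and 51 lower, a larger share higher than among the members. The classes between had 440 higher and 167 lower of 2114, 270 and 492 of 3560, and 101 and 444 of 2190. In the longest, 43 of 1479 were higher and 445 lower. Over all lengths members had a median standard error of 0.21, against 0.13 outside the rule, so shares called are not like for like. By median, members lay above the transcripts outside the rule in each class. The members were chosen for low control ratios, so this offset is not a result about the members.

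**Figure D4:**
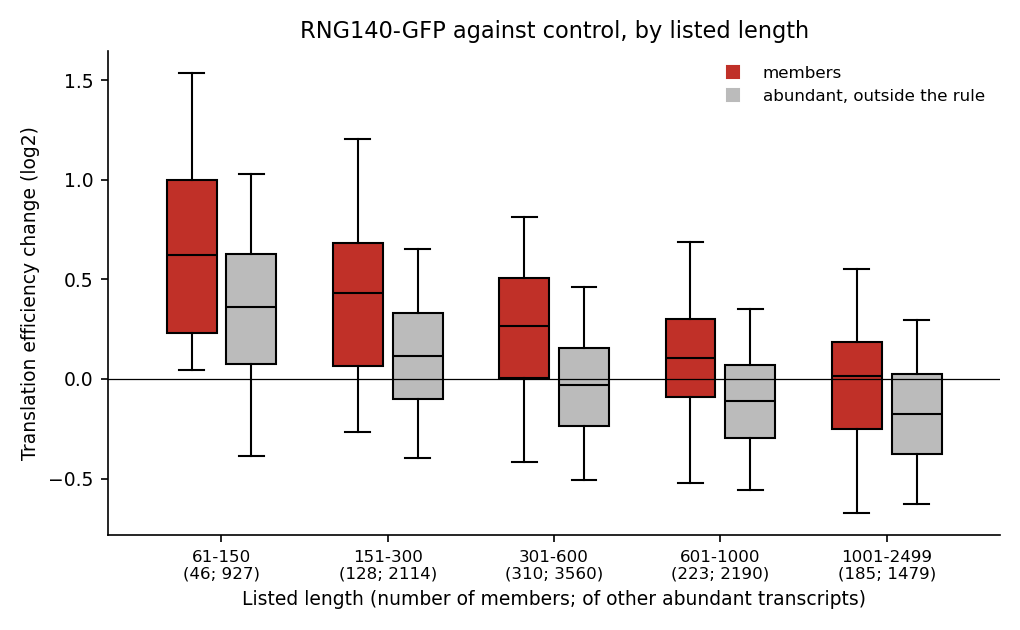
Change in translation efficiency (log2, RNG140-GFP against control) by class of listed length for the tested members (red) and the other abundant transcripts (grey), with the numbers of each under the axis. Boxes show the median and quartiles and whiskers the 5th and 95th percentiles; medians go from 0.62 to 0.01 in members and from 0.36 to -0.18 in the others.

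To treat both cell populations alike, the same limits were applied to the RNG140-GFP pairs. They were met by 869 transcripts, of which 638 were members: 70.1% of the members and 73.4% of the RNG140-GFP list. Of the 231 transcripts found only in RNG140-GFP cells, 49 were not abundant as RNA in controls, and 6 of these also had a control ratio above 0.25. The other 182 were abundant, and the larger of their control ratios had a median of 0.292 and reached at most 0.454. The 272 members that did not meet the limits in RNG140-GFP cells comprised 254 with a ratio above 0.25, whose larger ratio had a median of 0.298, and 18 that only lacked RNA at 10 CPM.

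The lists differed in length. Median listed length was 394.5 for the 272 members that left the limits, 621.5 for the 638 in both lists and 727 for the 231 that entered. Median changes in translation efficiency were 0.45, 0.07 and -0.39, in the same order; the outer values follow from how those lists were formed. Of the 869 transcripts of the RNG140-GFP list 844 were tested, and their median was -0.04, with 47 called higher and 120 lower. For the 892 tested members it was 0.17, with 136 and 40. Each list had the lower ratios in the population that chose it. Among the 623 tested transcripts in both lists 45 were called higher and 38 lower. The backgrounds over all tested transcripts were 11.2% and 12.0%.

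The largest rises in translation efficiency rested on few control footprints. ENSCGRT00000011668, of listed length 67, had 1 footprint count in each control library and 15 and 21 counts with RNG140-GFP, on RNA of 16.8, 16.3, 19.5 and 18.5 CPM. Its ratio went from 0.0066 and 0.0125 to 0.0632 and 0.0672, a rise of 2.81 ± 1.05 (SE, log2 scale, edgeR). ENSCGRT00000026915, of listed length 273, went from 3 and 3 footprint counts to 24 and 31, with ratios of 0.0173 and 0.0314 in controls, against 0.102 and 0.114 in RNG140-GFP cells, a rise of 2.19 ± 0.62. Neither rise was called without the first control footprint library, at 2.33 and 1.7 on the log2 scale. Both members passed the footprint filter, 0.943 CPM in at least 2 libraries, only through the RNG140-GFP libraries, where they were high, so their tests depended on that.

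Both next members had more reads. For the member of listed length 130 the change was from ratios of 0.0622 and 0.0552 to 0.192 and 0.23, a rise of 1.79 ± 0.29, with 20 and 10 control footprint counts. For that of listed length 106 it was from 0.0875 and 0.138 to 0.35 and 0.397, a rise of 1.73 ± 0.27, while its RNA was 37.9 and 32.4 CPM in controls, against 37.1 and 29.9 CPM in RNG140-GFP cells. In these 4 members the footprints rose and the RNA either was not called or fell.

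Decreases went below ratios that were already low. ENSCGRT00000024206, of listed length 841, went from 0.168 and 0.181 to 0.0521 and 0.0535, a change of -1.76 ± 0.48, on 18 and 11 control and 6 and 8 RNG140-GFP footprint counts. It passed the filter only through the control libraries. ENSCGRT00000005158, of listed length 1924, went from 0.212 and 0.21 to 0.101 and 0.0677, a change of -1.42 ± 0.38. It was not called without the first control footprint library (-1.37) or the second RNG140-GFP footprint library (-1.07).

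The remaining decreases had different parts. In the member of listed length 1123 RNA was 72.7 and 76.7 CPM in controls, against 85.8 and 91.4 CPM in RNG140-GFP cells, while footprints went from 11.6 and 11.8 to 7.15 and 7.5 CPM. Footprints fell by 0.81 ± 0.15, and translation efficiency changed by -0.97 ± 0.16 (SE, log2 scale, edgeR). In the member of listed length 1108 RNA rose by 0.88 ± 0.08 while footprints, at -0.04 ± 0.23, were not called. Its translation efficiency changed by -0.92 ± 0.24, which was not called without the first control footprint library (-0.96).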

How the data were processed

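The authors deposited 1 table per library with raw counts per transcript and a length in no stated unit. Per the submitters' processing notes the tools included CASAVA 1.8, Bowtie2 2.1.0 and TopHat2 2.0.9, with no role stated. Not given in the sources used here are the build, the annotation and how reads were counted. Groups and replicate numbers came from the titles.

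From these counts, CPM used library totals, as in the rule. Tests used edgeR 4.0.16 in R 4.3.3 (quasi-likelihood, TMM scaling, minimum count 10, adjusted p under 0.05). Footprints relative to RNA were tested in the 4 RNG140-GFP libraries (2 residual degrees of freedom, RNA filter alone, minimum change 2-fold). Changes used all 8 libraries as 4 groups, with both assays filtered. Standard errors were never below counting error. In data simulated for 16441 transcripts, 74% of 3-fold and 90% of 4-fold lower ratios were recovered against that minimum change. For translation efficiency over 15577 transcripts, 50.7% of 1.5-fold and 85.1% of 2-fold rises were. The changed transcripts were drawn at random from all those simulated, with a common spread. Members have few footprints, so these shares do not give the recovery among members.

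Transcripts were joined as sharing reads when identifier numbers differed by at most 3 and RNA counts by at most 25% in each RNA library. The members, lists and length classes were chosen with earlier results of these data known. Named members were, 1 per sharing group, the 6 with most control RNA, the 6 lowest and 6 highest RNG140-GFP ratios, and the 4 largest called rises and 4 largest called decreases in translation efficiency without overlap between groups, with 3 transcripts on each side of the ratio limit. Gene lists needed symbols and were not used. Scaling, filter, tool, block, threshold and left-out libraries were varied.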

Additional observations from a re-analysis of the deposited data

Results flagged for a closer look

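In 8 named members the footprint to RNA contrast differed between the cell populations by edgeR's interaction test, in which control libraries that chose the members also enter. The 4 largest rises in translation efficiency were 2.81, 2.19, 1.79 and 1.73 on the log2 scale, for members of listed lengths 67, 273, 130 and 106. The first 2 had control footprint counts of 1 and 1 and of 3 and 3, passed the footprint filter only through the RNG140-GFP libraries and lost the call without the first control footprint library. The 4 largest decreases were -1.76, -1.42, -0.97 and -0.92, for members of listed lengths 841, 1924, 1123 and 1108. That of listed length 841 passed the filter only through the control libraries, those of 1924 and 1108 lost the call without the first control footprint library, and that of 1924 also without the second RNG140-GFP footprint library. All 8 were picked for ratios that did not overlap between the populations.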

How the results depend on the processing

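The share of members with footprints called more than 2-fold below RNA within RNG140-GFP cells was 94%. It lay between 85.4% (DESeq2) and 98.9% (library totals) and between 90.8% and 94.7% with 1 library left out. Shares of tested members called for a change were 65.8% in RNA, 43.5% in footprints and 19.7% in translation efficiency. With 1 library left out they were 53.9% to 67.1%, 29.6% to 42.7% and 12.7% to 20%, and a lone library was assumed to vary like the others. Under the other alternatives they were 52% to 68.7%, 36.7% to 57.3% and 14.2% to 28.3%. The number of members, 910, became 564 at a ratio limit of 0.2, 1595 at 0.33, 537 at a minimum of 30 CPM and 495 with TMM-scaled CPM. The overlap of lists, 70.1% of members, lay between 69.1% and 76.1%. A replicate block gave 94.1% in the RNG140-GFP fit, and 68.6%, 43.6% and 22.4% for the changes in RNA, footprints and translation efficiency. Deviations of libraries with the same number correlated at r = 0.027 (control footprints and RNA) and -0.0046 (RNG140-GFP). They correlated at 0.0061 between footprint groups and 0.13 between RNA groups. The reported edgeR fits therefore did not take the numbers as pairs. The ratios did match libraries by number, as in the rule, and crossed pairs gave 903 members. Of the named members' values, 227 of 227 in the RNG140-GFP fit and 109 of 114 in translation efficiency kept their direction and side of the threshold; the other 5 lost the call with a footprint library left out. Settings that left a named member out of the fit are not among these values. Those were mostly the stricter filters on low counts, which removed members with few footprints. Low control footprint counts limit the changes of single members.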
